A study of Mus musculus with 6 samples.

Results

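The genes described here are 10 members of the transforming growth factor beta (TGF-beta) pathway: the ligand gene Tgfb1, the receptor genes Tgfbr1, Tgfbr2 and Tgfbr3, the Smad genes Smad2, Smad3, Smad4, Smad6 and Smad7, and the corepressor gene Ski. They were chosen by name from a deposited table of 55471 gene identifiers, of which 13470 passed a minimum mean of 1 TPM and were tested. TPM is a gene's length-corrected share of a library. All 10 were among the tested genes, with a single row each. The libraries were made from total RNA of haematopoietic stem cells sorted from mice of the genotype ETV6-RUNX1, a fusion of the ETV6 and RUNX1 genes found in childhood leukaemia. The stem cells were sorted by surface phenotype as Lin- Kit+ Sca1+ CD48- CD150+ cells. The uninduced group held 3 libraries from mice of this genotype without doxycycline. The induced group held 3 libraries from mice of the same genotype given doxycycline food for 2 weeks. The age of the mice, the promoter that drives the fusion and whether each library came from a different mouse are not given in the sources used here, so p-values measure only the spread between these libraries, which may be technical. No library of doxycycline-fed mice without the fusion was analysed here, so induction and doxycycline cannot be told apart.

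TGF-beta is secreted in a latent form and, once released, binds the type II receptor encoded by Tgfbr2, which then recruits and phosphorylates the type I receptor encoded by Tgfbr1. The activated receptor phosphorylates Smad2 and Smad3, which join Smad4, enter the nucleus and regulate target genes. Smad6 and Smad7 are inhibitory Smads, and Smad7 is itself a target of the pathway. In the bone marrow, TGF-beta is known for holding stem cells in quiescence.

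Starting sequences are shown for 3 of the genes. Tgfb1 had the highest TPM of the 10, and Smad3 and Smad6 encode a receptor-activated and an inhibitory Smad and neighbour each other on chromosome 9, with 195081 bases between them. Each run is the 250 bases before the annotated start, 5′ to 3′ on the gene's own strand, from RefSeq on GRCm38.p6, and capitals mark GGGCGG or its reverse complement CCGCCC, the GC box bound by Sp1-type factors. The windows are chr7:25686752-25687001 on the plus strand for Tgfb1, chr9:63757995-63758244 on the minus strand for Smad3 and chr9:64022060-64022309 on the minus strand for Smad6.
Tgfb1: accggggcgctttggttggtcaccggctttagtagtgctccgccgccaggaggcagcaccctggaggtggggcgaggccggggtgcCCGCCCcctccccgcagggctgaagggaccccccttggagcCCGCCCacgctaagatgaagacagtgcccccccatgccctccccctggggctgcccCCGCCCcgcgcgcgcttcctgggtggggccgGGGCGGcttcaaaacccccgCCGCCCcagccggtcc
Smad3: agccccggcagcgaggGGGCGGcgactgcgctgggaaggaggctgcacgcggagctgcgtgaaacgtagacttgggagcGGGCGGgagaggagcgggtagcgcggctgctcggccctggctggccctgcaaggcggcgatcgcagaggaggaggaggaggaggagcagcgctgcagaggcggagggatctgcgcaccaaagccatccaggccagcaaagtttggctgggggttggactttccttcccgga
Smad6: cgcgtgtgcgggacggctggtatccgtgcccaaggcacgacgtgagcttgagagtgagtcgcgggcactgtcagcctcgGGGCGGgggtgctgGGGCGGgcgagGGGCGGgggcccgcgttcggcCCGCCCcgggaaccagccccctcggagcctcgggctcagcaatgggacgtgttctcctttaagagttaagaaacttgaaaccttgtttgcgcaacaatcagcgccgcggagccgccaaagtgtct

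Promoters of 6 of the 10 genes were searched (Tgfb1, Tgfbr1, Tgfbr2, Smad3, Smad6 and Ski). They had 7 windows, since Tgfbr1 had a pair of annotated starts. The RefSeq promoter table had no entry for Tgfbr3. Smad2, Smad4 and Smad7 were left out of the search, so the 7 windows do not cover them. The palindromic Smad motif GTCTAGAC was in 0 of the 7 windows and in 0.167% of all 32851 windows of this length, counting both strands. The Smad-type motif CAGACA was in 1 window, 203 bases before the second annotated start of Tgfbr1, and in 17.1% of all windows. The Runx core motif TGTGGT was in 0 of the 7 windows and in 14.0% of all windows. The GC box, searched after the sequences had been seen, was in 5 of the 7 windows and in 32.7% of all windows. Windows with the box had a GC content of 66.8% to 87.6%, and those without it 58.4% (Tgfbr2) and 52.8% (second start of Tgfbr1). The share over all windows was not matched for GC content. The windows shown held no match of the other motifs. These are matches of letters only.

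On GRCm38, Tgfb1 (ENSMUSG00000002603) spans chr7:25687002-25705077 on the plus strand and Tgfbr1 (ENSMUSG00000007613) chr4:47353222-47414931 on the plus strand. Tgfbr2 (ENSMUSG00000032440) spans chr9:116084293-116175360 and Tgfbr3 (ENSMUSG00000029287) chr5:107106570-107289629, both on the minus strand. Smad3 (ENSMUSG00000032402) spans chr9:63646767-63757994, Smad6 (ENSMUSG00000036867) chr9:63953076-64022059 and Ski (ENSMUSG00000029050) chr4:155154075-155222592, all on the minus strand. Smad2, Smad4 and Smad7 are ENSMUSG00000024563, ENSMUSG00000024515 and ENSMUSG00000025880. In the GENCODE M21 annotation, Tgfbr3 overlaps 3 unverified gene models on its own strand, Gm42900, Gm43422 and Gm43423, and the pseudogene Gm8145 on the other strand, and Smad4 overlaps the pseudogene AC132418.2 on the other strand. Reads of the overlaps on the same strand could be assigned to either gene. Whether strand was used in the counting is not given in the sources used here, so reads of the opposite-strand overlaps could be as well.

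The libraries as a whole were not on a common scale. The median log2 change of all 13470 tested genes, induced minus uninduced, was -0.35 on the deposited TPM and 0.0032 after median-of-ratios scaling, which sets the median gene level between libraries. Nuclear protein-coding genes held 26.6% to 32.9% of the TPM in uninduced libraries and 20.5% to 23.2% in induced libraries. For each gene below the change over all 6 libraries is therefore given on both scales, as a difference of log2(TPM + 1). Of the stem cell markers fixed for the check, all 11 were above the minimum. Their summed TPM was 564 to 728 in uninduced and 680 to 748 in induced libraries, and 534 to 572 and 789 to 842 after median-of-ratios scaling. Of 10 proliferation markers 8 were called lower. The summed TPM of the proliferation list was 352 to 418 in uninduced and 76.9 to 106 in induced libraries. The summed TPM of the 9 erythroid genes was 54.6 to 60.6 and 402 to 467, with 6 genes called higher, among them the 4 globin genes, which had the highest TPM. Klf1 overlapped between groups, and Epor was lower in every induced library, at means of 3.37 and 0.485 TPM, and was not called (limma adjusted p = 0.0638). All 9 lymphoid markers were listed at 0 in every library. The summed TPM of the 6 macrophage genes was 2.35 to 6.24 and 9.59 to 14.1, that of the 8 myeloid genes was 158 to 161 and 113 to 145, and that of the 7 endothelial and stromal genes was 11.2 to 14.8 and 10.7 to 12.1. Of the macrophage genes 2 were tested, C1qa and Cd68, and both overlapped between groups and were not called. The myeloid list had 1 gene called, Prtn3, which was higher, although its sum was lower. After median-of-ratios scaling the myeloid sums overlapped, at 127 to 150 and 133 to 163. The summed TPM of the 9 megakaryocyte genes overlapped on the deposited scale, at 108 to 147 and 126 to 136, with 2 genes called higher (Ppbp and Pf4) and 1 lower (Gp9). After median-of-ratios scaling the megakaryocyte sums were 89.6 to 116 and 145 to 152, without overlap. In bulk RNA of sorted cells, fewer cells of a type and less RNA per cell cannot be told apart.

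Of the 10 genes, 1 passed the test on the deposited scale: Tgfbr3, the co-receptor, was lower in induced cells. In limma with Benjamini-Hochberg adjustment over all tested genes, 11.5% of genes were called at an adjusted p under 0.05, 10.2% lower and 1.29% higher. After median-of-ratios scaling 0 of the 10 were called by limma, where 5.98% of tested genes were called, 3.10% lower and 2.88% higher. At an unadjusted p under 0.05 there were 4 of the 10 on the deposited scale, against 27.9% of all tested genes, and 2 of the 10 after median-of-ratios scaling, against 21.8%. The groups did not overlap for 5 of the 10, all lower in induced libraries (Tgfbr3, Smad3, Smad4, Smad7 and Ski), where 28.2% of all tested genes did not overlap and were lower and 4.83% did not overlap and were higher. After median-of-ratios scaling they did not overlap for 4: Tgfbr3 and Smad7 were lower, and Tgfb1 and Tgfbr1 higher. Over all tested genes those shares were 14.3% lower and 13.6% higher. The median log2 change of the 10 was -0.45 against -0.35 for all tested genes, and 6 of the 10 lay below the median of all genes and 4 above it.

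**Figure D1:**
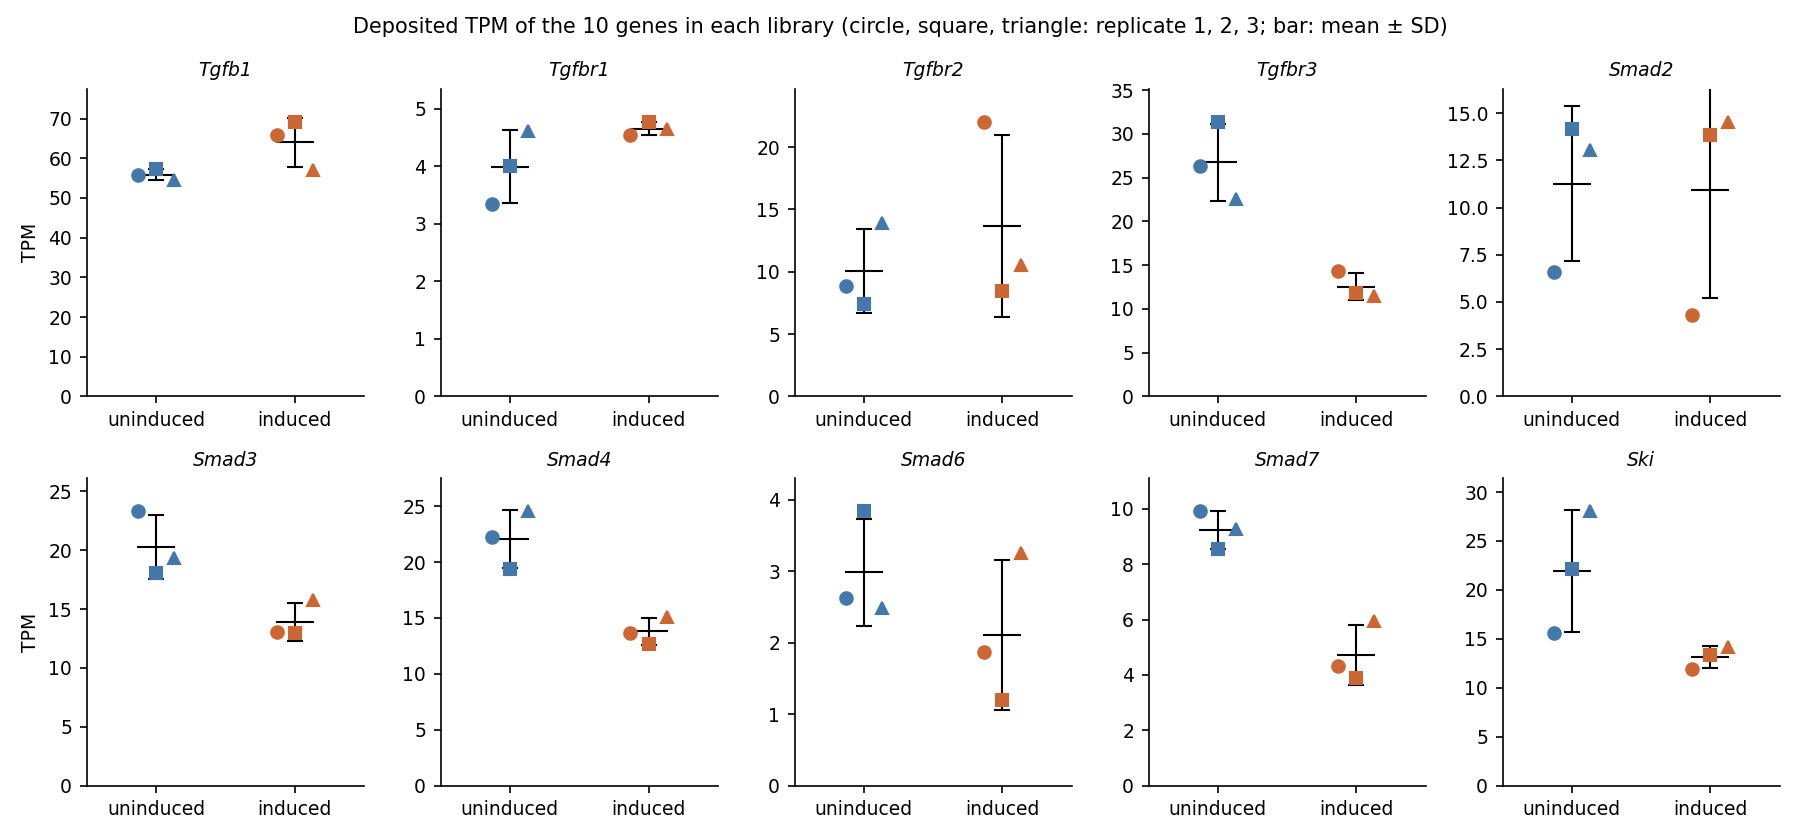
Deposited TPM of the 10 genes (y axis, each panel from 0) in the 3 uninduced and 3 induced libraries, with a point per library and the mean ± SD as a bar. Tgfbr3 sits at 22.6 to 31.4 TPM in uninduced and 11.5 to 14.3 TPM in induced libraries, while Smad2 and Tgfbr2 spread widely within groups.

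Tgfb1, the ligand gene, was at 55.8, 57.3 and 54.6 TPM in uninduced replicates 1, 2 and 3 and at 65.9, 69.2 and 57.2 TPM in induced replicates 1, 2 and 3. The groups overlapped only between uninduced replicate 2 and induced replicate 3. Tgfb1 was the highest of the 10 genes in both groups, at percentile 92.8 of mean TPM among tested genes, and it varied little within groups. Its log2 change was 0.19 on the deposited scale (95% interval -0.19 to 0.57, limma adjusted p = 0.499). After median-of-ratios scaling the change was 0.59 (0.22 to 0.97) with an adjusted p of 0.0730, and all 3 induced libraries lay above all 3 uninduced libraries. That value did not pass the threshold.

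Tgfbr1, which encodes the type I receptor, was at 3.35, 4.01 and 4.61 TPM in uninduced and 4.54, 4.77 and 4.65 TPM in induced libraries. The induced values were close together and overlapped with uninduced replicate 3. The log2 change was 0.19 (95% interval -0.52 to 0.90, limma adjusted p = 0.744), and 0.51 after median-of-ratios scaling (adjusted p = 0.379). Without uninduced replicate 1 it was 0.091 on the deposited scale.

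Tgfbr2, which encodes the type II receptor that binds the ligand, was at 8.87, 7.43 and 13.9 TPM in uninduced and 22.0, 8.46 and 10.6 TPM in induced libraries. Induced replicate 1 stood above the other 5 libraries, which overlapped between groups. On the log2 scale the change was 0.34 (95% interval -0.50 to 1.18, limma adjusted p = 0.597), and -0.038 without induced replicate 1 (adjusted p = 0.962). After median-of-ratios scaling it was 0.71 (95% interval -0.18 to 1.60, adjusted p = 0.344), with overlapping groups. Both intervals span 0, so neither direction can be read from these libraries.

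Tgfbr3 encodes betaglycan, a co-receptor that presents ligand to the type II receptor. It was at 26.3, 31.4 and 22.6 TPM in uninduced and 14.3, 11.8 and 11.5 TPM in induced libraries. Every induced library was below every uninduced library, and the mean fell from 26.7 ± 4.41 to 12.5 ± 1.54 TPM (SD, n = 3 each), 0.468 of the uninduced mean. The log2 change was -1.03 (SE 0.23, 95% interval -1.55 to -0.51, limma adjusted p = 0.0219). After median-of-ratios scaling the groups still did not overlap, and the change was -0.64 (95% interval -1.10 to -0.18) with an adjusted p of 0.103. The call was therefore lost on that scale. Fits on 5 libraries kept the call only where uninduced replicate 3 was the one removed, with changes of -1.14 to -0.91 and adjusted p of 0.0321 to 0.0810 over the 6 fits.

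**Figure D2:**
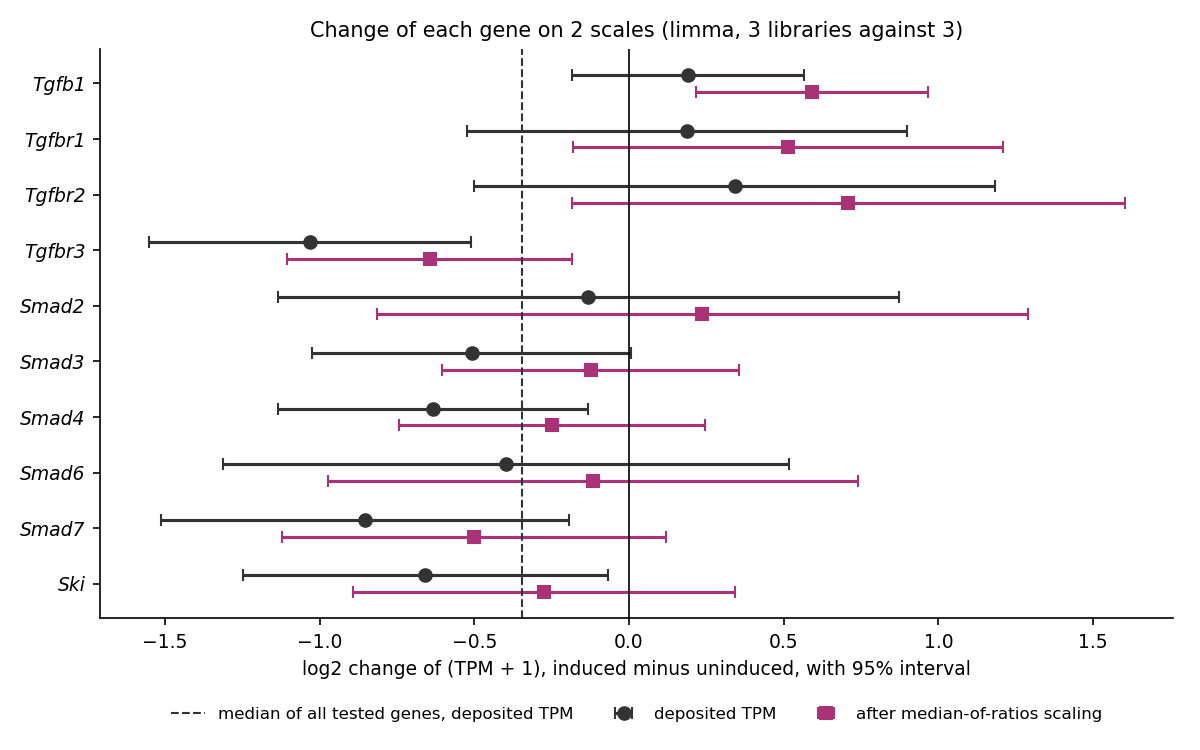
The log2 change of (TPM + 1), induced minus uninduced (x axis), of each of the 10 genes with its 95% interval from limma, on the deposited scale (circles) and after median-of-ratios scaling (squares); the dashed line is the median of all tested genes at -0.35. Tgfbr3 has its interval below 0 on both scales, and Tgfb1 has its interval above 0 only after scaling.

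Smad2, a receptor-activated Smad, was at 6.59, 14.2 and 13.04 TPM in uninduced and 4.34, 13.8 and 14.5 TPM in induced libraries. Replicate 1 of each group was the low library, and the remaining 4 libraries lay between 13.04 and 14.5 TPM. Its pooled SD within groups, 0.73 on the log2(TPM + 1) scale, was at percentile 85.1 of the tested genes. Its log2 change was -0.13 (95% interval -1.14 to 0.87, limma adjusted p = 0.878) and 0.24 after median-of-ratios scaling (adjusted p = 0.823), so its sign depends on the scale.

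Smad3, the other receptor-activated Smad of the TGF-beta branch, was at 23.3, 18.1 and 19.3 TPM in uninduced and 13.1, 12.9 and 15.7 TPM in induced libraries. Every induced library was below every uninduced library on the deposited scale. A log2 change of -0.51 was estimated (95% interval -1.02 to 0.0071, limma adjusted p = 0.184). After median-of-ratios scaling it was -0.12 (adjusted p = 0.791), and the groups overlapped.

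Smad4, the common partner of the receptor-activated Smads, was at 22.3, 19.4 and 24.6 TPM in uninduced and 13.6, 12.7 and 15.1 TPM in induced libraries. The groups did not overlap, with means of 22.1 ± 2.60 and 13.8 ± 1.22 TPM (SD, n = 3 each). For Smad4 the log2 change was -0.63 (95% interval -1.14 to -0.13, limma adjusted p = 0.0989). After median-of-ratios scaling the groups overlapped, with a change of -0.25 (adjusted p = 0.566).

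Smad6, the inhibitory Smad best known for acting on bone morphogenetic protein (BMP) signals, was the lowest of the 10, at 2.62, 3.84 and 2.48 TPM in uninduced and 1.86, 1.19 and 3.25 TPM in induced libraries. The groups overlapped, and induced replicate 3 was above 2 of the uninduced libraries. The log2 change was -0.40 (95% interval -1.31 to 0.52, limma adjusted p = 0.566), and -0.12 after median-of-ratios scaling (95% interval -0.97 to 0.74, adjusted p = 0.900). With 1 library removed it lay between -0.65, without induced replicate 3, and -0.17, without induced replicate 2, and it was -0.25 without uninduced replicate 2.

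Smad7, the inhibitory Smad of the TGF-beta branch, was at 9.92, 8.54 and 9.26 TPM in uninduced and 4.32, 3.90 and 5.96 TPM in induced libraries. The groups did not overlap, and the induced mean was 0.511 of the uninduced mean. For Smad7 the log2 change was -0.85 (95% interval -1.51 to -0.19, limma adjusted p = 0.0927). After median-of-ratios scaling the groups still did not overlap, with a change of -0.50 (95% interval -1.12 to 0.12, adjusted p = 0.337). Smad7 passed the threshold on neither scale.

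Ski encodes a corepressor that binds Smads and restrains their target genes. It was at 15.6, 22.1 and 28.04 TPM in uninduced and 12.0, 13.4 and 14.2 TPM in induced libraries. The induced libraries lay close together below the widely spread uninduced ones. For Ski the log2 change was -0.66 (95% interval -1.25 to -0.07, limma adjusted p = 0.137), and -0.27 after median-of-ratios scaling (adjusted p = 0.618), where the groups overlapped.

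Because TPM is corrected for length, levels can be ordered between genes. In uninduced cells the order of mean TPM was Tgfb1, Tgfbr3, Smad4, Ski, Smad3, Smad2, Tgfbr2, Smad7, Tgfbr1 and Smad6. Neighbours in this order overlapped over libraries except at 3 steps, from Tgfb1 to Tgfbr3, from Smad3 to Smad2 and from Smad7 to Tgfbr1. In induced cells the order was Tgfb1, Smad3, Smad4, Tgfbr2, Ski, Tgfbr3, Smad2, Smad7, Tgfbr1 and Smad6, and only the first and the last step were free of overlap. Tgfbr3 stood at rank 2 in uninduced cells and at rank 6 in induced cells, and Tgfbr2 at rank 7 and rank 4. The induced rank of Tgfbr2 rests on induced replicate 1, at 22.0 TPM. In induced replicates 2 and 3 Tgfbr2 was at 8.46 and 10.6 TPM, below Ski and Tgfbr3 in the same libraries.

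Ratios within a library do not depend on how libraries are scaled to each other, and 8 were computed as descriptions with no test. The ratio of the co-receptor Tgfbr3 to the type II receptor Tgfbr2 was 2.97, 4.22 and 1.62 in uninduced and 0.649, 1.39 and 1.09 in induced libraries. Tgfbr3 exceeded Tgfbr2 in every uninduced library, and the groups did not overlap, although the lowest uninduced value, in replicate 3, lay near the highest induced value. The ratio of the inhibitory Smads, Smad6 plus Smad7, to the receptor-activated Smads, Smad2 plus Smad3, was 0.419, 0.384 and 0.363 in uninduced and 0.355, 0.190 and 0.304 in induced libraries. All induced libraries were lower here, by a narrow margin between uninduced replicate 3 and induced replicate 1. Mean ratios were 0.389 ± 0.0286 and 0.283 ± 0.0847 (SD, n = 3 each). The difference of the mean log2 ratios was -0.50, and -0.24 without induced replicate 2.

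The other 6 ratios overlapped between groups. Ski to Smad4 was 0.996 ± 0.255 in uninduced and 0.957 ± 0.0896 in induced libraries (SD, n = 3 each). Smad4 to Smad2 plus Smad3 was 0.701 ± 0.0874 and 0.586 ± 0.172, and Tgfbr1 to Tgfbr2 was 0.417 ± 0.109 and 0.403 ± 0.182 (SD, n = 3 each). Tgfb1 to Tgfbr2 was 5.97 ± 1.91 and 5.53 ± 2.59, and Smad7 to Smad6 was 3.25 ± 0.883 and 2.47 ± 0.733 (SD, n = 3 each). Smad3 to Smad2 was 3.54 and 3.01 in replicate 1 of the groups and between 0.934 and 1.48 in the other 4 libraries, which follows the low Smad2 values there.

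**Figure D3:**
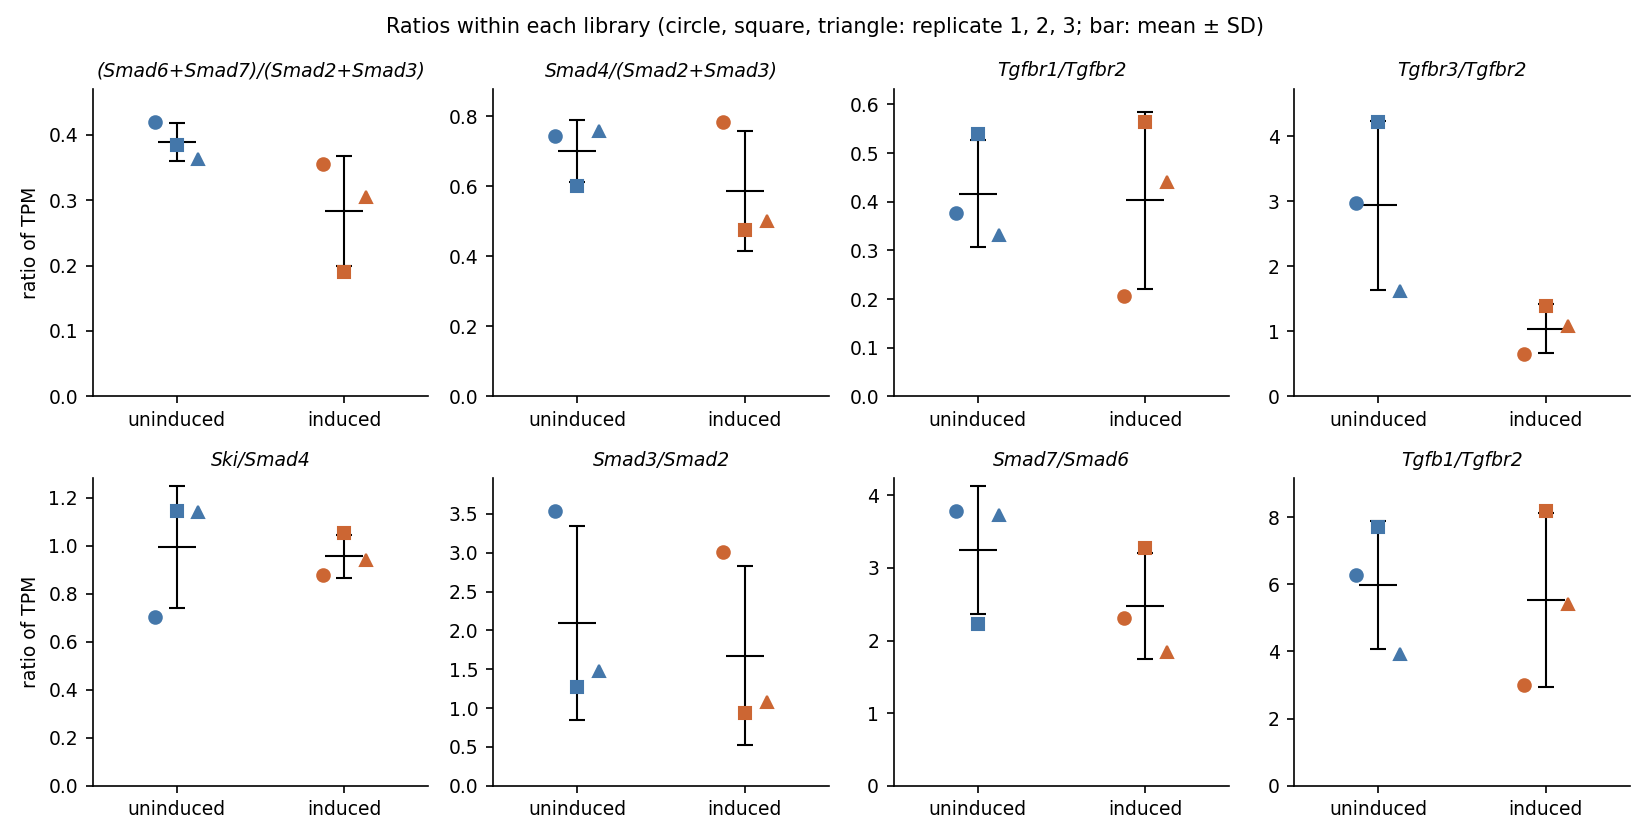
Ratios of TPM within each library (y axis, each panel from 0) for 8 pairs of genes or summed genes, with a point per library and the mean ± SD as a bar. Tgfbr3 to Tgfbr2 and the inhibitory to receptor-activated Smads are the 2 ratios whose groups do not overlap.

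The wider pathway was described with a list of 97 genes, the 10 included, of which 59 were tested and 20 were listed at 0 in every library. On the deposited scale 3 list genes were called lower (Tgfbr3, Skil and Strap) and 1 higher (Bhlhe40), beside 10.2% and 1.29% of all tested genes. After median-of-ratios scaling 1 was called lower (Skil) and 2 higher (Bhlhe40 and Tgfbi), beside 3.10% and 2.88% of all tested genes. The median log2 change of the 59 was -0.22 against -0.35 for all tested genes, and 0.16 against 0.0032 after median-of-ratios scaling.

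Among the ligand and activation genes, 6 of 13 were tested and 0 were called by limma on either scale, with 2 at an unadjusted p under 0.05 on the deposited scale and 4 after median-of-ratios scaling, beside 27.9% and 21.8% of all tested genes. Tgfb2 was listed at 0 in every library, so Tgfb1 was the main TGF-beta ligand transcript measured, with Tgfb3 below the minimum at means of 1.32 TPM in uninduced and 0.238 TPM in induced libraries. Of 18 other ligands and antagonists 3 were tested and 0 were called by limma, with 1 at an unadjusted p under 0.05 on the deposited scale and 0 after scaling, beside the same 27.9% and 21.8%. In this group 8 were listed at 0 in every library, among them the BMP antagonists Nog, Chrd and Grem1.

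Of 15 receptors and co-receptors 10 were tested. On the deposited scale limma called 1, Tgfbr3, which was lower, beside 10.2% of all tested genes called lower. At an unadjusted p under 0.05 there were 2 on that scale, beside 27.9% of all tested genes. After median-of-ratios scaling limma called 0, with 2 at an unadjusted p under 0.05, beside 21.8% of all tested genes. Eng, which encodes endoglin, a co-receptor related to betaglycan, had the highest TPM of the other receptors, at 68.0, 68.5 and 51.7 TPM in uninduced and 41.3, 41.3 and 58.9 TPM in induced libraries. Induced replicate 3 overlapped with the uninduced group, and the log2 change was -0.41 on the deposited scale (95% interval -0.89 to 0.059, limma adjusted p = 0.237) and -0.012 after median-of-ratios scaling. Acvr1b, the type I activin receptor gene, was at 7.03, 10.9 and 8.40 TPM and 11.5, 13.3 and 18.3 TPM. Its groups did not overlap and were higher in induced libraries, with a log2 change of 0.65 (95% interval 0.0077 to 1.29, limma adjusted p = 0.174) and 1.02 after median-of-ratios scaling (adjusted p = 0.0555). Acvr1b passed under 1 of the 18 alternatives, protein-coding rescaling (adjusted p = 0.0486). Bmpr2, the BMP type II receptor gene, had a log2 change of 0.08 (95% interval -0.50 to 0.67, limma adjusted p = 0.868) and 0.45 after median-of-ratios scaling (95% interval -0.089 to 0.98, adjusted p = 0.317), where all induced libraries were higher. On the deposited scale it lay between 0.032, without induced replicate 3, and 0.15, without induced replicate 2. Acvr2b, an activin type II receptor gene, had means of 3.26 and 1.02 TPM and overlapping groups. Its log2 change was -1.10 (95% interval -2.36 to 0.17, limma adjusted p = 0.242) and -0.85 after median-of-ratios scaling (adjusted p = 0.421). Without induced replicate 1 it was -0.71 (adjusted p = 0.517).

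Of the 8 Smads 7 were tested and 0 were called by limma on either scale, with 3 at an unadjusted p under 0.05 on the deposited scale and 1 after median-of-ratios scaling, beside 27.9% and 21.8% of all tested genes. Smad9 was listed at 0 in every library. The median log2 change of the 7 was -0.51, and -0.12 after median-of-ratios scaling. The tested BMP-branch Smads, Smad1 and Smad5, differed from each other in sign. Smad1 was at 10.5, 9.75 and 16.4 TPM in uninduced and 26.4, 14.4 and 14.1 TPM in induced libraries, with overlapping groups and a log2 change of 0.52 (95% interval -0.19 to 1.23, limma adjusted p = 0.321). After median-of-ratios scaling it was 0.90 (95% interval 0.14 to 1.66, adjusted p = 0.161), and on the deposited scale without induced replicate 1, the highest library, it was 0.24 (adjusted p = 0.700). Smad5 was at 15.8, 14.997 and 38.2 TPM in uninduced and 5.21, 12.0 and 9.87 TPM in induced libraries, without overlap on this scale. Its log2 change was -1.20 (95% interval -2.10 to -0.29, limma adjusted p = 0.0858), and uninduced replicate 3 stood far above its group. Without that library the change was -0.78 (adjusted p = 0.216). After median-of-ratios scaling it was -0.82 (95% interval -1.84 to 0.20, adjusted p = 0.337), and the groups overlapped.

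Of 28 Smad partners and regulators 25 were tested. Skil encodes SnoN, a corepressor related to Ski and itself a TGF-beta target. It fell from 14.2, 14.6 and 11.8 TPM in uninduced to 1.79, 1.95 and 5.70 TPM in induced libraries. For Skil the log2 change was -1.93 (95% interval -2.79 to -1.07, limma adjusted p = 0.0133) and -1.59 after median-of-ratios scaling (adjusted p = 0.0386). The Skil call was lost without uninduced replicate 1 or 2 or induced replicate 1 or 2, with adjusted p of 0.0134 to 0.0656 over the 6 fits that left out a library. It was also lost without the expression filter (adjusted p = 0.0639) and with the replicate block and GC correction (adjusted p = 0.0550). Strap, whose product binds TGF-beta receptors and Smad7, fell from 52.9, 54.2 and 50.3 TPM to 27.5, 24.1 and 21.4 TPM. Its log2 change was -1.08 (limma adjusted p = 0.00761) and was called in each of the 6 fits that left out a library. After median-of-ratios scaling it was -0.69 with an adjusted p of 0.0586. Strap likewise missed the threshold after quantile normalization, after protein-coding rescaling and with the replicate block and GC correction (adjusted p of 0.0563 to 0.0886).

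Of 15 genes widely used as TGF-beta or BMP targets 8 were tested, and Ccn2, Col1a1, Id4 and Atoh8 were among those listed at 0 in every library. Bhlhe40, a transcription factor gene, rose from 10.3, 12.2 and 5.28 TPM to 32.6, 22.2 and 27.1 TPM. Its log2 change was 1.52 (95% interval 0.81 to 2.22, limma adjusted p = 0.0160) and 1.90 after median-of-ratios scaling (adjusted p = 0.00646). The call on the deposited scale was lost without any one of the induced libraries, with adjusted p of 0.0327 to 0.0726 over the 6 fits, and without the expression filter (adjusted p = 0.0678). Tgfbi, a secreted matrix protein gene named for its induction by TGF-beta, was at 7.96, 16.8 and 6.91 TPM in uninduced and 20.9, 21.4 and 19.3 TPM in induced libraries. The groups did not overlap, and Tgfbi was called after median-of-ratios scaling (log2 change 1.38, limma adjusted p = 0.0284) and not on the deposited scale (1.00, adjusted p = 0.0753). Without uninduced replicate 2 Tgfbi passed on the deposited scale too (1.36, adjusted p = 0.0292). The median log2 change of the 8 tested targets was 0.22 against -0.35 for all tested genes, and 0.62 against 0.0032 after median-of-ratios scaling. On the deposited scale 2 of the 8 did not overlap and were higher in induced libraries and 1, Id2, was lower, beside 4.83% and 28.2% of all tested genes. After median-of-ratios scaling 5 of the 8 did not overlap and were higher in induced libraries and 0 were lower, beside 13.6% and 14.3% of all tested genes. Smad7 and Skil, which are also known targets of the pathway but were not placed in this list, had lower TPM in every induced library. The proliferation, erythroid and macrophage sums given above did not overlap between the same groups on either scale, the myeloid sum on the deposited scale only and the megakaryocyte and stem cell sums after scaling only, and their part in these differences was not tested.

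**Figure D4:**
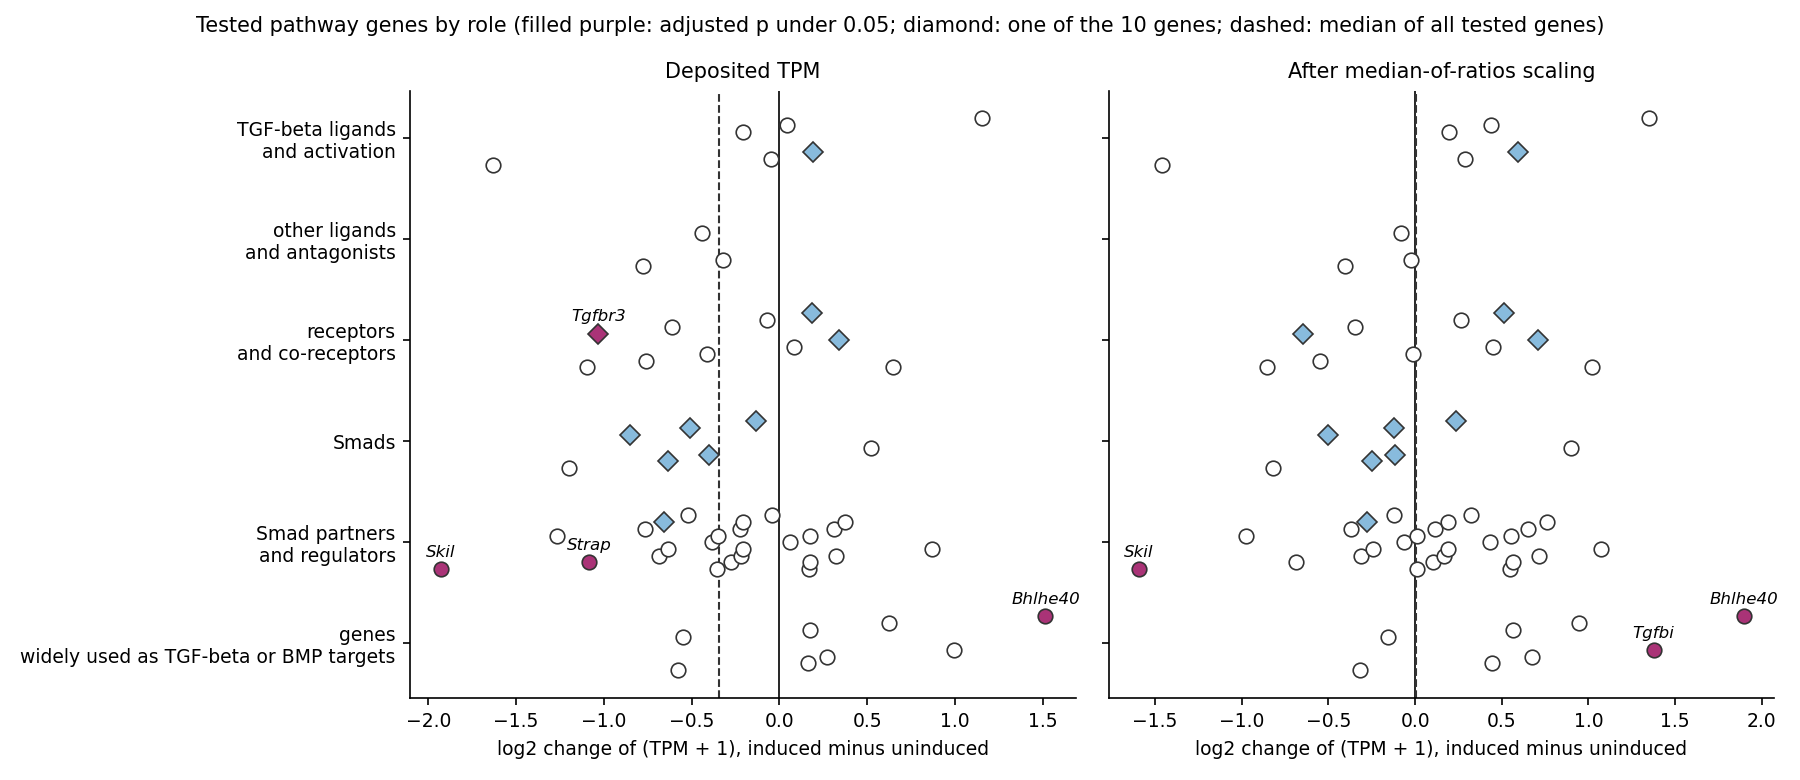
The log2 change of (TPM + 1), induced minus uninduced (x axis), of the 59 tested pathway genes by role (rows), on the deposited scale (left) and after median-of-ratios scaling (right). Purple symbols are genes with an adjusted p under 0.05, diamonds are the 10 genes described here, and the dashed line is the median of all tested genes; Skil and Bhlhe40 are purple on both sides.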

How the data were processed

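Total RNA of sorted stem cells was sequenced in 6 libraries, and the authors deposited gene values in TPM with StringTie named as the program. The submitters' processing notes name HISAT2, StringTie, DESeq2 and the build GRCm38; versions, annotation and filters are not given in the sources used here. TPM keeps no depth, so no counting interval or floor is given. A deposited column holds each gene's GC content in percent and was used only for a GC correction.

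Rows were summed per gene ID. Genes averaging 1 TPM or more were tested on log2(TPM + 1) with limma 3.58.1 (trend, empirical Bayes, two-sided) in R 4.3.3. Benjamini-Hochberg adjustment was over 13470 genes, with a threshold of 0.05. In simulated data this test called 25 of 100 genes with an absolute log2 change of 1, and 89 of 100 with a change of 2. A gene that was not called can therefore still differ between the groups. Groups came from library titles. Members and lists were chosen with earlier results of these data known. Named beside the 10 members were pathway genes called on either scale and the 6 other Smads and receptors with the highest mean TPM; Tgfbrap1 encodes a receptor-associated protein and was not taken as a receptor. Alternatives, 18 in number, changed the pseudocount, filter, scaling, variance model, weights, GC correction, replicate block and libraries used.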

Additional observations from a re-analysis of the deposited data

How the results depend on the processing

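The number of genes called, 1549 (1375 lower, 174 higher), was 752 without the expression filter, 806 (418 lower, 388 higher) after median-of-ratios scaling, 814 (440 and 374) after quantile normalization, 809 (393 and 416) after protein-coding rescaling, 767 without the variance trend, 839 (493 and 346) after GC correction, and with 1 library removed 573 to 1198. With the replicate block it was 902, and 571 with the replicate block and GC correction. Of the 10 members the 1 called, Tgfbr3, became 0 after median-of-ratios scaling, quantile normalization, protein-coding rescaling and GC correction, without the variance trend, and with the replicate block, alone or with GC correction. Removing 1 library gave 0 to 1. Over the 18 alternatives Tgfbr3 was lower in all, from -1.14 to -0.62, and was called in 6. The number of pathway genes called, 4 (Tgfbr3, Skil, Strap and Bhlhe40), was 2 with the replicate block and GC correction (Bhlhe40 and Tgfbi), 5 after protein-coding rescaling (Acvr1b, Bhlhe40, Junb, Skil and Tgfbi), and with 1 library removed 1 to 5. The Smad2 change of -0.13 became 0.24 after median-of-ratios scaling, 0.23 after quantile normalization, 0.26 after protein-coding rescaling and 0.20 after GC correction with or without the replicate block, and lay at -0.45 to 0.37 with 1 library removed. Tgfbr2, at 0.34, lay at -0.038 to 0.60 with 1 library removed, and Eng became 0.017 after protein-coding rescaling. Of the 10 members, the other 8 kept their direction. After these scalings and GC correction the median of all genes was -0.020 to 0.029, against -0.35 on the deposited scale; the cause of the other changes was not tested. Same-numbered libraries did not deviate together: their deviations from the group means correlated at 0.021, -0.015 and 0.017. TPM holds no depth, so what depth limits could not be measured.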
